A study of Mus musculus domesticus and Mus musculus domesticus x Mus musculus castaneus and Mus musculus castaneus with 10 samples.

Results

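Genes for voltage-gated sodium, voltage-gated calcium, hyperpolarization-activated (HCN) and potassium channels were examined in undifferentiated pluripotent stem cells of the mouse strain CAST/EiJ (hereafter CAST), the laboratory strain of Mus musculus castaneus. Members were chosen by gene symbol alone, as protein-coding genes beginning with Scn, a number and a or b, with Cacna1, Cacna2d, Cacnb, Cacng or Kcn, or with Hcn and a digit. The rule found 134 of the 18370 protein-coding genes in the count table, of which 13 were sodium, 25 calcium, 4 HCN and 92 potassium channel genes. A further 4 annotated genes that meet it (Scn4a, Cacng8, Kcnc2 and Kcnk4) were not analysed here.

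The CAST cells were an induced pluripotent line derived from embryonic fibroblasts with retroviral Oct4, Sox2 and Klf4, cultured on irradiated fibroblast feeders that were depleted before RNA extraction. A pair of RNA-seq libraries represented this line, with 14460393 counts on genes in replicate 1 and 13728098 in replicate 2. The batch entries in the labels differ between the libraries, so a batch effect and replicate variation cannot be told apart. The 4 libraries of the 129S6/SvEv embryonic stem cell line and the 4 of the 129CAS hybrid, and any other strain or cell type, were not analysed here, so no difference between strains or cell types was measured and no p-value is given. The level of a gene is its count divided by the total of its library, per 1000000 (CPM), and the levels of different channel genes are compared as CPM per kb of exon. Sums and shares over groups of genes are of CPM, in which longer genes weigh more. Where a pair of values is given, replicate 1 comes before replicate 2. Means are over n = 2 libraries, and their SD describes the distance between these libraries.

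Ion channels are membrane proteins that open a path for selected ions. Sodium and calcium channels of this kind open on depolarization, through a large pore-forming alpha subunit accompanied by smaller auxiliary subunits, and HCN channels open on hyperpolarization and pass sodium and potassium. Potassium channels include voltage-gated (Kv), inward rectifier, tandem pore domain and calcium-activated classes, of which the tandem pore domain class carries the leak current that holds the resting potential. Many of these genes are best known from neurons and muscle, whereas non-excitable and dividing cells also use potassium channels to set membrane potential and volume.

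The 134 channel genes together held 0.0625% of the counts in replicate 1 (95% Wilson interval 0.0612% to 0.0638%) and 0.0574% in replicate 2 (0.0561% to 0.0587%), intervals that cover counting error only. This equalled 625 and 574 CPM, or 599 ± 36.0 CPM (SD, n = 2). A gene was called detected when it had more than 3 counts in each library, a limit equal to 0.207 CPM in replicate 1 and 0.219 CPM in replicate 2. Of the 134 members, 72 (53.7%) were detected, against 69.9% of all protein-coding genes in the table. A further 20 had more than 3 counts in 1 library, and 42 in neither, of which 17 had no count at all. A mean of at least 10 CPM was reached by 16 members (11.9%), where 47.2% of all protein-coding genes reached it. Detected members also lay low on the scale, with a median of 0.760 CPM per kb among the 72 detected members and 5.60 CPM per kb among detected protein-coding genes. At this depth a gene with 3 counts or fewer was not detectable, which does not show that it was absent. In bulk RNA, transcripts in few cells and few transcripts in every cell cannot be told apart.

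Potassium channel genes held 54.1% of the summed level of all members, calcium channel genes 28.4%, HCN genes 10.01% and sodium channel genes 7.44%. In CPM, potassium channel genes summed to 363 in replicate 1 and 286 in replicate 2, calcium channel genes to 159 and 182, HCN genes to 61.1 and 58.9, and sodium channel genes to 41.6 and 47.6. The order of these 4 sums was the same in both libraries. A few genes made up much of the total, since the 3 with the highest CPM held 28.5% of it and the 10 highest held 57.9%.

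**Figure D1:**
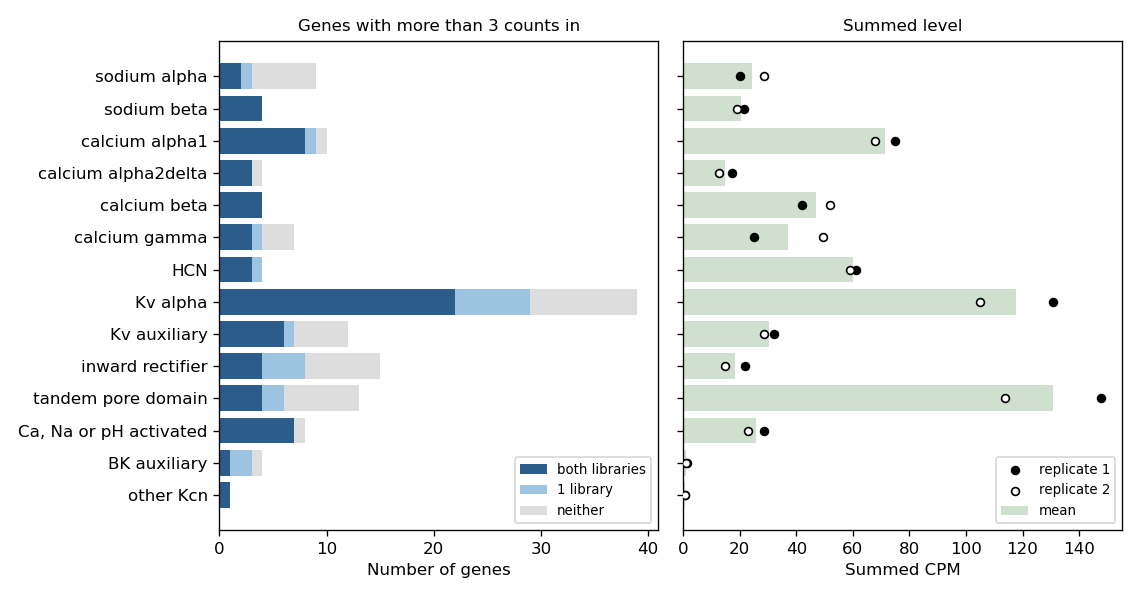
Channel genes by subfamily in CAST stem cells. Left, bars give the number of genes with more than 3 counts in both libraries, in 1 library or in neither. Right, bars give the mean summed CPM and points each library (filled, replicate 1, and open, replicate 2). The tandem pore domain class had only 4 detected genes of 13 but the highest summed level, while 22 of 39 Kv alpha genes were detected.

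The tandem pore domain class, which sets leak conductance, had the highest summed level of the potassium classes, with 148 CPM in replicate 1 and 114 CPM in replicate 2. Only 4 of its 13 genes (30.8%) were detected, against 69.9% of all protein-coding genes. Kcnk5 (ENSMUSG00000023243, chromosome 14 of GRCm38, 20140057 to 20181809) encodes a channel sensitive to extracellular pH and had 1291 and 910 counts. Its level, 77.8 ± 16.3 CPM (SD, n = 2), was 22.9 ± 4.78 CPM per kb, the highest mean per kb of all members and the highest in each library. Kcnk1 (chromosome 8, 125995170 to 126030685), a weakly conducting member of the class, had 639 and 406 counts and 16.5 ± 4.62 CPM per kb. Kcnk5 (26.2 and 19.5 CPM per kb) lay above Kcnk1 (19.8 and 13.2) in each library, although the ranges over the libraries overlapped. Kcnk12, which is known to give little current by itself, had 3.30 ± 0.554 CPM per kb, and Kcnk6 had 2.06 ± 0.511. The other 9 genes of the class included Kcnk9 and Kcnk13, with no count in either library, and Kcnk3, with 0 and 1. Kcnk16, a close neighbour of Kcnk5 on chromosome 14, had 8 counts in replicate 1 and 0 in replicate 2.

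Inward rectifiers pass potassium more easily into the cell than out of it. Of 15 Kcnj genes, 4 were detected (26.7%, against 69.9% of all protein-coding genes) and 4 had no count in either library. The detected share was among the lowest of the subfamilies. The class had 21.99 CPM in replicate 1 and 14.6 CPM in replicate 2, and most of it came from a pair of genes of the strongly rectifying group. Kcnj12 had 181 and 111 counts, equal to 3.75 ± 1.14 CPM per kb, and Kcnj4 had 104 and 62 counts, equal to 2.72 ± 0.879. Kcnj12 was above Kcnj4 in each library, with ranges that overlapped. Kcnj11 and Kcnj8, which encode the pores of ATP-sensitive channels, had no count in either library. Of the sulfonylurea receptors that assemble with them, Abcc9 had 1 and 0 counts, whereas Abcc8 had 19 and 79.

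Kv alpha subunits form the voltage-gated potassium channels, and 22 of 39 were detected, with 131 CPM in replicate 1 and 105 CPM in replicate 2. The families hold between 1 and 8 genes each, and 69.9% of all protein-coding genes were detected. With so few genes, no difference between families is read from these numbers. All 3 Kcnc genes, all 4 Kcng genes and Kcnf1 were detected, as were 6 of 8 Kcnh, 2 of 3 Kcns, 2 of 5 Kcnq, 1 of 3 Kcnd and 2 of 8 Kcna genes, but neither Kcnv gene. The Kcnh family summed to the highest CPM of these, with 35.5 and 32.1 CPM, and the Kcna family to 2.77 and 3.79 CPM. Kcnh2 (chromosome 5, 24319589 to 24351604), which encodes the ERG channel of cardiac repolarization, had 365 and 216 counts, or 4.23 ± 1.39 CPM per kb. Kcnd1, a channel of transient A-type current, had 205 and 100 counts and 2.03 ± 0.922 CPM per kb.

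The Kcng, Kcns, Kcnf and Kcnv genes encode electrically silent subunits, which conduct only when joined with subunits of another Kv family. Kcns3 (chromosome 12, 11090202 to 11151056) had the highest mean per kb of the Kv alpha genes, with 290 and 114 counts, which is 6.34 and 2.62 CPM per kb. Its range overlapped that of Kcnh2, so that the order of these genes was not resolved. Kcns1 had 40 and 42 counts, and Kcnf1 had 48 and 54.

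Auxiliary subunits of Kv channels were detected for 6 of 12 genes. Kcnab3, a cytoplasmic beta subunit related to aldo-keto reductases, had 234 and 146 counts and 4.68 ± 1.37 CPM per kb, and all 3 Kcnab genes were detected. Kcnip genes encode calcium-binding partners of Kcnd channels, and 3 of 4 were detected. None of the 5 Kcne genes, which encode small single-span subunits, was detected in both libraries, and Kcnq1, the partner of Kcne1 in the slow cardiac current, had 1 and 0 counts.

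Calcium-, sodium- or pH-activated potassium channels were detected for 7 of 8 genes (87.5%), against 69.9% of all protein-coding genes. The share was the highest among the larger potassium classes but rests on few genes. Their summed level was low, at 28.5 and 22.7 CPM. Kcnu1 (chromosome 8, 25849623 to 25937939), best known as the pH-sensitive channel of sperm, had 88 and 114 counts and 1.93 ± 0.420 CPM per kb. Its relative Kcnma1, the widely expressed BK channel, had 11 and 18 counts and 0.0610 ± 0.0229 CPM per kb, below Kcnu1 in both libraries. Of 4 Kcnmb genes, which modulate BK channels, 1 was detected.

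**Figure D2:**
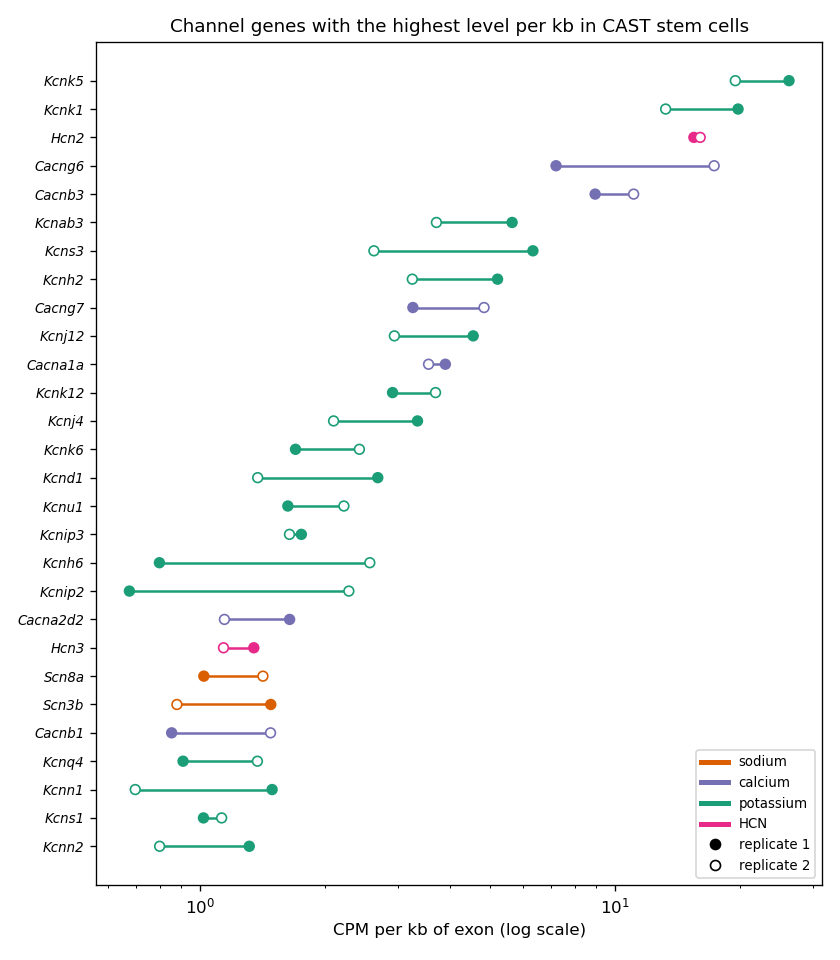
Plotted are 28 of the 30 detected channel genes with the highest mean level in CAST stem cells, as CPM per kb of exon on a log scale. Filled points are replicate 1, open points replicate 2, lines join the libraries and colours give the ion. Kcnk5, Kcnk1 and Hcn2 lead with means of 22.9, 16.5 and 15.8, and the range of Kcnk1 overlaps those of Kcnk5 and Hcn2.

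HCN genes encode pacemaker channels. Hcn2 (ENSMUSG00000020331, chromosome 10, 79716634 to 79736108) had 715 and 703 counts, a level of 50.3 ± 1.25 CPM and 15.8 ± 0.390 CPM per kb. Its rank in the per-kb order was 3 in both libraries, and its range overlapped those of Kcnk1 and Cacng6. Hcn3 had 81 and 65 counts and 1.24 ± 0.148 CPM per kb, and Hcn4, the main form of the sinoatrial node, had 83 and 37 counts and 0.689 ± 0.352. The Hcn2 level per kb was above those of Hcn3 and Hcn4 in each library, without overlap.

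Pore-forming calcium channel subunits were detected for 8 of 10 Cacna1 genes, with 75.0 CPM in replicate 1 and 68.0 CPM in replicate 2. Cacna1a (chromosome 8, 84388440 to 84640246), the P/Q-type subunit of transmitter release, had 644 and 557 counts and 3.73 ± 0.245 CPM per kb, the highest per kb of these subunits. Cacna1f, the retinal L-type subunit, had no count in either library. The muscle and neuronal L-type subunits Cacna1s, Cacna1c and Cacna1d were detected but had at most 28 counts in a library. The low-threshold T-type subunit Cacna1h had 84 and 150 counts and 0.857 ± 0.371 CPM per kb.

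Auxiliary calcium channel subunits, as classed by gene symbol, had higher levels per kb than these pores in several cases. Whether each product joins a calcium channel in these cells was not examined. Cacnb3 (chromosome 15, 98630840 to 98644529), a cytoplasmic beta subunit that helps bring the pore to the membrane, had 519 and 610 counts and 10.02 ± 1.51 CPM per kb. All 4 Cacnb genes were detected, and Cacnb1 had 56 and 92 counts and 1.17 ± 0.442 CPM per kb. Among the gamma subunits, Cacng6 (chromosome 7, 3424195 to 3435667) had 206 and 470 counts and 12.3 ± 7.15 CPM per kb, and the neighbouring Cacng7 (chromosome 7, 3332955 to 3368221) had 115 and 162 counts and 4.05 ± 1.11. Cacnb3, Cacng6 and Cacng7 were at 8.95, 7.21 and 3.26 CPM per kb in replicate 1, and Cacna1a was at 3.90. In replicate 2 they were at 11.1, 17.3 and 4.83, with Cacna1a at 3.55, so that Cacng7 was not above Cacna1a in both libraries. Cacna2d2, whose product raises surface levels of the pore, had 189 and 125 counts and 1.40 ± 0.353 CPM per kb, and 3 of 4 Cacna2d genes were detected.

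Sodium channel genes are given by subunit. All 4 beta subunit genes were detected, against 2 of 9 alpha subunit genes and 69.9% of all protein-coding genes. Scn3b, a beta subunit, had 117 and 66 counts and 1.18 ± 0.425 CPM per kb. Of the alpha subunits, Scn8a (chromosome 15, 100869858 to 101045938), a neuronal channel of the axon initial segment, had 233 and 307 counts and 1.22 ± 0.280 CPM per kb. The per-kb ranges of Scn3b and Scn8a overlapped.

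Position in the genome was a feature that the rule did not use. Members on the same chromosome less than 500 kb apart formed 22 groups with 52 members, of which 5 groups had all members detected, 8 had none and 9 were mixed. The alpha subunit genes of chromosome 2, Scn3a and Scn2a (65457118 to 65767447) and Scn1a, Scn9a and Scn7a (66270778 to 66784914), had between 0 and 3 counts per library. On chromosome 9, Scn10a had 3 and 2 counts and Scn11a had 3 and 4. The Kcna5, Kcna1 and Kcna6 group of chromosome 6 (126532551 to 126740674) had at most 6 counts per gene and library. The median exon length was 4817 bases in detected members and 4732.5 bases in the remainder.

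**Figure D3:**
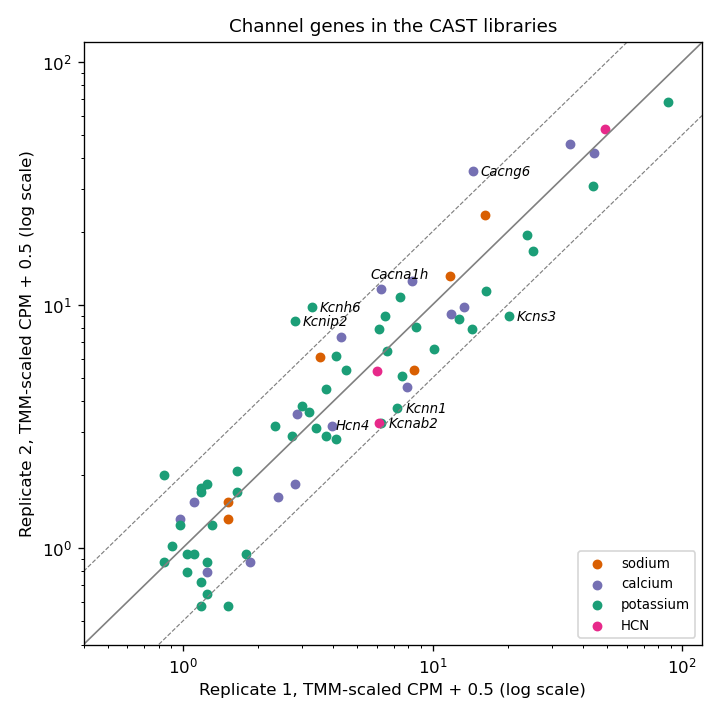
Channel genes of the CAST libraries whose counts sum to at least 10, as TMM-scaled CPM plus 0.5 on log axes and coloured by ion. The solid line marks equal levels and the dashed lines levels 2-fold apart. Of 74 genes, 8 lie outside the dashed lines, and the genes named are those with the largest ratios among members at 1 CPM or more.

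The libraries were compared gene by gene with TMM scaling and a pseudocount of 0.5 CPM, to see how far a level could vary within the group. As log2 ratios with replicate 1 over replicate 2, the median was 0.08 over the 74 members with at least 10 counts in total and 0.01 over 13117 protein-coding genes. Of the 74, 40 (54.1%) were higher in replicate 1, against 51.1% of all protein-coding genes tested. At least a 2-fold distance was seen in 8 members (10.8%), against 8.52% of all protein-coding genes, so that the channel genes lay near the background. Of the 8, 4 were higher in replicate 1, as were 5.05% of all protein-coding genes, and 4 in replicate 2, as were 3.47%. With a pseudocount of 0.1 CPM the number was 15, and with 2 CPM it was 4. Some of the 8 rest on few reads, as do Kcnq3 (15 and 1 counts) and Kcns2 (10 and 1).

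The largest ratios toward replicate 2 among members at 1 CPM or more were those of Kcnip2, Kcnh6, Cacng6 and Cacna1h. Kcnip2, a partner of Kcnd channels, had 34 and 109 counts and a log2 ratio of -1.62, with an exact 95% counting interval of -2.41 to -1.25 (interval without pseudocount). Kcnh6, a further ERG-type channel, had 41 and 125 counts and a log2 ratio of -1.58 (-2.29 to -1.22). Cacng6 had a log2 ratio of -1.29 (-1.57 to -1.08), and Cacna1h had -0.91 (-1.37 to -0.58). As genes picked for their ratios, these show the widest distances between the libraries and not a typical one.

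Toward replicate 1, the largest ratios among members at 1 CPM or more were those of Kcns3, Kcnn1, Kcnab2 and Hcn4. Kcns3 had a log2 ratio of 1.17 (0.90 to 1.54). Kcnn1, a small-conductance calcium-activated channel, had 99 and 44 counts and a log2 ratio of 0.93 (0.51 to 1.58). Kcnab2, with 84 and 37 counts, had 0.93 (0.47 to 1.65), and Hcn4 had 0.91 (0.46 to 1.63). Of these, only Kcns3 passed 2-fold with the pseudocount of 0.5 CPM. Without it the others also lay just over 2-fold apart. Their TMM-scaled CPM were 6.71 and 3.27 for Kcnn1, 5.69 and 2.75 for Kcnab2, and 5.62 and 2.75 for Hcn4.

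Genes that bind or regulate the channels but lie outside the symbol rule were taken as a list of 28, of which 27 had a row used here and 18 were detected. They included Rest, the repressor of neuronal genes in non-neuronal cells, with 502 CPM in replicate 1 and 427 CPM in replicate 2, and its corepressors Rcor2 (316 and 309 CPM), Sin3a (249 and 225) and Rcor1 (72.3 and 71.6). Calmodulin, the calcium sensor that several of the channels bind, was represented by Calm3 with 248 ± 4.69 CPM (SD, n = 2). The membrane anchors Sptbn4 (62.2 ± 6.05 CPM), Ank3 (23.3 ± 9.63) and Ank2 (21.96 ± 11.6) were detected, as was the calcium channel adaptor Stac2 (34.9 ± 11.1). The sodium channel partners Fgf13 (9.56 ± 2.71 CPM) and Fgf11 (8.41 ± 3.77) were detected, whereas Fgf12 and Fgf14 had 2 and 0 counts each. Dpp10 and Stac had no count in either library, and the sodium leak channel Nalcn had 12 and 14 counts. With TMM scaling and 0.5 CPM added, Ank2 had a log2 ratio of replicate 1 to replicate 2 of 1.05 and Abcc8 one of -1.83.

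Marker lists described what the libraries contained. Of 10 pluripotency markers, 8 had a row used here and all 8 were detected, with summed levels of 4219 CPM in replicate 1 and 3396 CPM in replicate 2. These include Pou5f1 (Oct4) and Sox2, which were also reprogramming factors, and any reads of the retroviral copies were not separated. All 12 fibroblast markers were also detected, with 6688 and 4130 CPM, and 10 of the 12 were higher in replicate 1. With replicate 1 over replicate 2, the median log2 ratio of these markers was 1.20, against 0.01 for all protein-coding genes, and ranged from 2.22 for Fbn1 to -0.15 for Pdgfrb. Col1a1 had 1726 and 777 CPM, Fn1 2401 and 2002 CPM and Dcn 3.25 and 3.21 CPM. Of 10 neuronal markers, 7 were detected, with 224 and 175 CPM in all. Stmn2 (124 and 117 CPM) and Tubb3 (81.2 and 44.2 CPM) made up most of this, whereas Syt1 had no count, Dcx had 0 and 1 counts, and Snap25 had 7 and 2. Which cells gave the RNA of the fibroblast markers was not tested. Nor was any part of such RNA in the channel levels, or in the higher potassium channel sum of replicate 1.

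Exons of 38 members overlap those of another annotated gene, among them 23 of the 72 detected members. The strand setting of the counting was not given in the sources used here, so that reads of an antisense partner cannot be told apart. Of the genes with levels above, 8.01% of the Kcnk1 exon bases are shared with an antisense RNA not analysed here, and 17.1% of those of Hcn3 with Pklr, which had 0.415 and 0.364 CPM.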

How the data were processed

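The authors deposited raw read counts per gene, without normalization, listed by Ensembl identifier. By the study's methods, reads were mapped with STAR to the CAST/EiJ genome, ambiguous reads were dropped and genes were counted in the same step, whereas the submitters' processing notes name TopHat2 2.1.1, SAMtools and HTSeq with GRCm38. Which of these made the counts was not settled. The table has 7 further columns of per-sample values, which match no sample of the list and were not used in any step.

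Symbols (26807 of 26808 identifiers), biotypes, positions and exon lengths (union of all exons) came from GENCODE M21 (GRCm38). CPM used library totals. Ratios used TMM effective library sizes from edgeR 4.0.16 in R 4.3.3 (DESeq2 1.42.0 size factors as an alternative), a pseudocount of 0.5 CPM and at least 10 counts in total. Counting intervals were exact (Clopper-Pearson) for the ratios and Wilson for shares, at 95%, and cover counting error only. No test between groups could be fitted with 1 group. Tables were made in Python 3.11.15 (pandas 2.3.3), intervals with scipy 1.17.1 and plots with matplotlib 3.10.9. The ratio was tested on simulated counts.

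The members, lists and alternatives were chosen with earlier results of these data known. Named genes were the 12 potassium, 6 calcium and 3 sodium genes with the highest level per kb, all HCN genes, the 8 with the largest ratios among members at 1 CPM or more, and list genes at 5 CPM or more. Other genes were named after their values were seen. A few of these genes are not reported here.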

Additional observations from a re-analysis of the deposited data

How the results depend on the processing

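No paired analysis was possible because 1 group alone was analysed here. The number of detected members, 72, was 54 with more than 10 counts in each library and 92 with more than 3 in either, and 77 to 87 from a lone library. The summed levels of the 4 ion groups moved by less than the SD between libraries under TMM, DESeq2 size factors and the restriction to detected members. Both scalings lower the levels of replicate 1 and raise those of replicate 2, so a mean over the libraries could hardly move and is no check. The restriction drops only genes with few counts. Leaving out 1 library gave 286 to 363 CPM for potassium, 159 to 182 for calcium, 58.9 to 61.1 for HCN and 41.6 to 47.6 for sodium channel genes. The number of members at least 2-fold apart, 8, was 15 with a pseudocount of 0.1 CPM and 4 with 2 CPM, which act on low genes by construction. It was 8 with library totals or DESeq2 size factors and 9 with at least 1 count in total, and the median log2 ratio stayed between 0.06 and 0.14 under these 5 alternatives. The median level of detected members, 0.760 CPM per kb, was 0.673 to 0.730 with 1 library left out and 0.775 with the longest coding transcript as length. With that length the 25 members named for their level rose by between 1 and 1.47 times, and 18 of the 20 highest were shared. Counts of 3 or fewer allow no statement on a difference, which limits the 42 members detected in neither library.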
